A study of Mus musculus with 9 samples.

Results

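Cells detect DNA outside the nucleus with a set of sensor proteins, and 9 mouse genes of this pathway are described here at the mRNA level in 3 striatal cell lines of a Huntington disease (HD) model. They encode the sensors cGAS (Cgas), AIM2 (Aim2), IFI204 (Ifi204), DDX41 (Ddx41) and ZBP1 (Zbp1), the adaptor STING, listed under its older symbol Tmem173, the kinases TBK1 (Tbk1) and IKK-epsilon (Ikbke), and the transcription factor IRF3 (Irf3). They were chosen by name for their place in the pathway, with earlier results of these data known. The count table holds 10 rows for them among 36410 listed genes, because cGAS has a second row under its older symbol Mb21d1.

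The cells are immortalized striatal neuronal lines from mouse embryos, labelled as strain C57/BL6, which express Htt from alleles with a knock-in exon 1. The control line (STHdhQ7/Q7) carries the wild-type form with 7 repeats on both alleles. The HD-het line (STHdhQ7/Q111) has alleles of 7 and 111 repeats, and both alleles of the HD-homo line (STHdhQ111/Q111) have 111. No treatment is given in the labels. Each genotype is a single line, so the effects of genotype and of line cannot be told apart. Since nothing says that the 3 libraries of a line came from separate cultures, the p values measure only the spread between these libraries. Poly(A)-selected RNA was sequenced in strand-specific libraries with 29507665 to 41197931 counted reads each, and replicates within a line differed by more than counting noise, from 2.20 times its variance between control replicates 1 and 2 to 39.2 times between HD-homo replicates 2 and 3. Values are normalized counts per megaread (CPM), on which scale 3 reads are worth 0.0710 to 0.101 CPM. The lines were compared by the quasi-likelihood test of edgeR, written as edgeR QL beside its p values, which were adjusted by the Benjamini-Hochberg method over all tested genes.

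Markers of mature striatal neurons were largely absent from the lines. The dopamine receptor genes Drd1 and Drd2 had at most 3 reads in every library, as did the neuronal genes Rbfox3, Snap25, Syt1 and Nefl, whereas Foxp1, Map2 and Tubb3 were detected in all lines (93.8, 62.9 and 42.4 CPM in control cells). Of 10 microglia and macrophage markers, Aif1, Itgam, Tyrobp and Adgre1 had at most 3 reads in every library. The summed level of the 10 was 14.3 to 18.0 CPM in control, 45.8 to 57.8 CPM in HD-het and 15.7 to 17.0 CPM in HD-homo libraries, most of it from Tmem119. Of 6 lymphocyte markers, 5 had at most 3 reads in every library, and their sum did not exceed 0.404 CPM.

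In this pathway cGAS binds double-stranded DNA in the cytosol and makes the second messenger cGAMP, which binds STING on the endoplasmic reticulum. STING then moves to the Golgi and recruits TBK1 and the related kinase IKK-epsilon, which phosphorylate IRF3, and IRF3 enters the nucleus and switches on type I interferon and other antiviral genes. IFI204 and DDX41 are DNA-binding proteins reported to signal through STING, AIM2 binds DNA and assembles an inflammasome, and ZBP1 binds left-handed nucleic acids and signals through the necroptosis kinase RIPK3. In the brain the pathway is best known in microglia, the resident immune cells, and it is also present in other cell types.

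Among the 9 genes, cGAS and Zbp1 differed most between the HD-homo line and control cells. The cGAS mRNA was almost absent from control cells, present at a low level in HD-het cells and abundant in HD-homo cells, and Zbp1 was detected above the level of 3 reads in HD-homo libraries and in 1 HD-het library. The messages for AIM2 and IKK-epsilon were higher in both HD lines than in control cells and higher in HD-homo cells than in the HD-het line. The messages for STING, TBK1, DDX41 and IRF3 differed by less than a factor of 3 between any lines, and those for STING and DDX41 were lowest in HD-het cells and highest in HD-homo cells. Irf3 alone was lower in HD-homo cells than in controls past the test's threshold. Because the lines are bulk cultures, fewer expressing cells and less RNA per cell cannot be told apart.

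**Figure D1:**
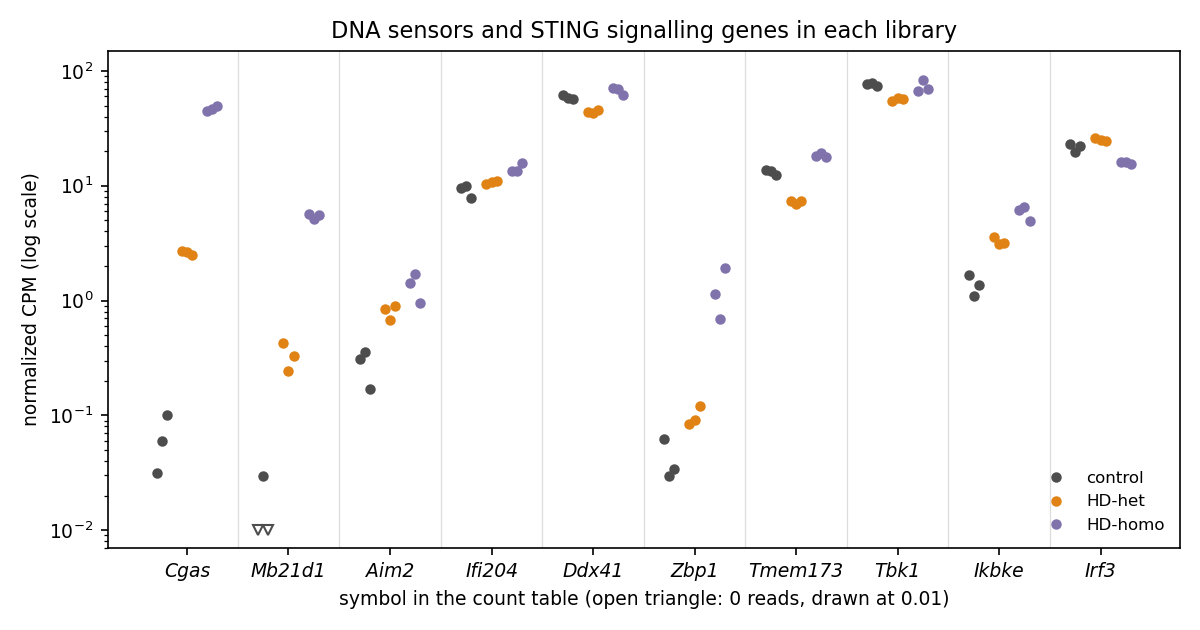
Normalized CPM on a log scale for each of the 10 rows, with 1 point per library and 3 libraries per line, and with libraries at 0 reads drawn as open triangles at 0.01. The points of Cgas run from 0.0311 CPM in control replicate 1 to 49.3 CPM in HD-homo replicate 3, while those of Tbk1, Ddx41 and Irf3 stay within a narrow band.

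Promoters were read from RefSeq (GRCm38.p6) for Cgas, Aim2, Ikbke, Irf3, Tbk1 and Ddx41, as the 250 bases before the RefSeq start, on the strand of the gene. The windows of Cgas, Aim2 and Ikbke are shown because these members were higher in each HD line than in control cells and higher in HD-homo cells than in the HD-het line. Capitals mark matches to the kappaB letters GGGNNNTTCC. Cgas was read at chr9:78443238-78443487 on the minus strand, Aim2 at chr1:173420354-173420603 on the plus strand, inside the longer gene of GENCODE, and Ikbke at chr1:131279564-131279813 on the minus strand.
Cgas: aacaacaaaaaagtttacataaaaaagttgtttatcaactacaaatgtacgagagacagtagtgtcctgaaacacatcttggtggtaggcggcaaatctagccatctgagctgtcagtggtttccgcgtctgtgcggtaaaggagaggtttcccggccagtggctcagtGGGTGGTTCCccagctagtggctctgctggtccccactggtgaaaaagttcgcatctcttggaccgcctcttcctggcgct
Aim2: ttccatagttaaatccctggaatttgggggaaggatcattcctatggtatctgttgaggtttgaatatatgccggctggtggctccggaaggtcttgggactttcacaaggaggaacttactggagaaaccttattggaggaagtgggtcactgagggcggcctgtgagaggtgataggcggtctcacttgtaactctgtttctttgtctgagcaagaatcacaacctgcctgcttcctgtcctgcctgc
Ikbke: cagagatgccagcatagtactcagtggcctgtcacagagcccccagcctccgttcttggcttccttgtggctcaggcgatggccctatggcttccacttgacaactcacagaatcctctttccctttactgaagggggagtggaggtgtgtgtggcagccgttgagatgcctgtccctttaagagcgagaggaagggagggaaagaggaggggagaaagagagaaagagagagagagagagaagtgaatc
Of the windows of 6 members, that of Cgas alone held the kappaB letters, 81 bases before the start and on the strand of the gene, and 4.65% of 32851 such mouse windows hold them on either strand.

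The interferon-stimulated response element (ISRE) is the sequence that IRF proteins bind, and its core was searched on both strands as GAAANNGAAA. It was in none of the 6 member windows, in 2.98% of all windows and in the windows of 5 of 11 known IRF3 target genes, namely Cxcl10, Ifit1, Ifit3, Isg15 and Rsad2. The sites of 3 targets are shown to set beside the member promoters, with the core in capitals, at chr4:156200863-156200908 (minus strand) for Isg15, chr19:34640773-34640825 (plus strand) for Ifit1 and chr5:92349081-92349114 (minus strand) for Cxcl10.
Isg15: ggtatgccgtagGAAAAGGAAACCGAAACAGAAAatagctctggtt
Ifit1: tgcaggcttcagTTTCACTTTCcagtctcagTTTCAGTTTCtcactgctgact
Cxcl10: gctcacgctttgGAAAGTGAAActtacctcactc
Isg15 holds 3 overlapping cores on the strand of the gene, Ifit1 holds 2 on the opposite strand, and Cxcl10 holds 1. A match to such letters says nothing of binding, and their absence from 250 bases says nothing of the rest of the gene.

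Cgas lies on the minus strand of chromosome 9 (GRCm38, 78430526 to 78443237) and has 5 exons in its longest protein-coding GENCODE transcript of 4049 nucleotides. The row Cgas held 1, 2 and 3 reads in control replicates 1 to 3, 95, 87 and 84 in HD-het replicates and 1450, 1988 and 1652 in HD-homo replicates. On the row Mb21d1 the counts were 0, 1 and 0 in control, 15, 8 and 11 in HD-het and 186, 217 and 188 in HD-homo libraries. The lines did not overlap on either row, and every HD-homo library held more cGAS reads than the other 6 libraries together. With both rows added, the cGAS level was 0.0311, 0.0892 and 0.101 CPM in control, 3.10, 2.9 and 2.85 CPM in HD-het and 50.2, 52.2 and 54.9 CPM in HD-homo libraries.

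Since only 7 cGAS reads were counted in control cells, the size of the increase is known only within the counting error. From the summed reads the ratio of HD-homo to control cells was 714, with an exact 95% interval of 346 to 1777, and that of HD-het to control cells was 40.2 (19.3 to 101). The ratio of HD-homo to HD-het cells, which rests on 5681 and 300 reads, was 17.8 (15.8 to 20.0). These intervals cover counting error only. The fitted log2 fold changes of the sum were 9.41 in HD-homo and 5.26 in HD-het against control cells (adjusted p = 5.7e-12 and 1.1e-08, edgeR QL), and 4.15 between the HD lines (adjusted p = 2.9e-11, edgeR QL). No control library of either row reached the level of the filter on low counts. The gene was thus tested only because of its level in the HD lines, and these p values are a description only.

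The second row followed the first. Mb21d1 took 10.4% of all cGAS reads in HD-homo cells (exact 95% interval 9.62 to 11.2%) and 11.3% in HD-het cells (7.98 to 15.5%), and the share lay between 8.42% and 13.6% in the 6 HD libraries. Between the HD lines Mb21d1 had a log2 fold change of 4.02 (SE 0.223) and Cgas of 4.16 (SE 0.0958). Of the 50-base words of the Cgas transcript, 4.88% also occur in another gene, most of them in Gm8093, a processed pseudogene that overlaps 201 bases of Cgas on the opposite strand.

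The AIM2 message was rare in all lines. It lies on the plus strand of chromosome 1 (173350879 to 173466040), close to Ifi204 and the other genes of the PYHIN family, whose products share a DNA-binding domain. The level of Aim2 was 0.311, 0.357 and 0.169 CPM in control, 0.846, 0.671 and 0.899 CPM in HD-het and 1.41, 1.70 and 0.954 CPM in HD-homo libraries, from 5 to 72 reads. All HD-het libraries were above all control libraries, and all HD-homo libraries above all HD-het libraries, the closest being HD-homo replicate 3 and HD-het replicate 3. The ratio of summed reads was 4.89 (exact 95% interval 3.23 to 7.66) for HD-homo against control cells and 2.85 (1.82 to 4.58) for HD-het against control cells, and both differences passed the test (log2 fold changes 2.26 and 1.5, adjusted p = 9.2e-05 and 0.0023, edgeR QL). Between the HD lines the log2 fold change was 0.76, higher in HD-homo cells (adjusted p = 0.0219, edgeR QL). This difference did not pass with DESeq2's Wald test (adjusted p = 0.0644), without HD-het replicate 2 (adjusted p = 0.0817) or without HD-homo replicate 2 (adjusted p = 0.0989).

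Ifi204, the mouse gene most often set beside human IFI16, lies on the minus strand of the same chromosome (173747293 to 173766943). Its level was 9.49, 9.96 and 7.81 CPM in control, 10.3, 10.9 and 11.1 CPM in HD-het and 13.4, 13.5 and 15.9 CPM in HD-homo libraries. The 3 lines did not overlap. In HD-homo cells Ifi204 was 1.57-fold higher than in control cells (log2 fold change 0.64, SE 0.110, adjusted p = 4.1e-04, edgeR QL) and 1.33-fold higher than in HD-het cells (log2 fold change 0.41, SE 0.108, adjusted p = 0.0055, edgeR QL). The difference between HD-het and control cells, 0.24 on the log2 scale with a 95% interval of -0.01 to 0.48, did not pass (adjusted p = 0.0788, edgeR QL). The counts of Ifi204 are uncertain, because 30.2% of the 50-base words of its transcript also occur in other genes, mainly its relatives Ifi211, Mndal, Ifi207 and Ifi205.

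Ddx41 encodes a DEAD-box helicase that also takes part in splicing and was, per length, the most abundant member in all lines. It lies on the minus strand of chromosome 13 (55530410 to 55536658). The level of Ddx41 was 61.2, 58.0 and 57.0 CPM in control, 44.3, 42.9 and 45.9 CPM in HD-het and 70.6, 69.2 and 62.2 CPM in HD-homo libraries. The HD-het libraries were the lowest, and control replicate 1 came within 1 CPM of HD-homo replicate 3. Ddx41 fell by 0.40 on the log2 scale in HD-het cells (SE 0.0650, adjusted p = 2.2e-04, edgeR QL) and was 0.20 higher in HD-homo cells than in controls (SE 0.0643, adjusted p = 0.0211, edgeR QL). The latter call was lost without control replicate 2 (adjusted p = 0.0705), control replicate 3 (0.0730), HD-homo replicate 1 (0.0739) or HD-homo replicate 2 (0.0523). An antisense gene, Gm46416, overlaps 306 bases of the Ddx41 transcript, and 7.51% of the 50-base words of that transcript also occur in it.

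Zbp1 lies on the minus strand of chromosome 2 (173206612 to 173218923). The counts of Zbp1 were 2, 1 and 1 in control, 3, 3 and 4 in HD-het and 37, 29 and 65 in HD-homo libraries, or 1.13, 0.687 and 1.94 CPM in the last. HD-homo replicate 3 held more than double the reads of replicate 2, and all 3 stood far above the other lines. The ratio of summed reads was 28.8 (exact 95% interval 11 to 107) for HD-homo against control cells and 12.3 (6.47 to 26.2) for HD-homo against HD-het cells. The fitted log2 fold changes were 4.76 (adjusted p = 2.9e-05, edgeR QL) and 3.60 (adjusted p = 3.9e-05, edgeR QL). No control or HD-het library of Zbp1 reached the level of the filter on low counts. Zbp1 was thus tested only because of its HD-homo level, and these p values are a description only. Between HD-het and control cells a ratio of 2.34 (0.676 to 10.2), from 10 and 4 reads, was too uncertain to give a direction at this depth (adjusted p = 0.289, edgeR QL).

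STING is the adaptor of cGAS and, as reported, of IFI204 and DDX41, and its gene Tmem173 lies on the minus strand of chromosome 18 (35733679 to 35740554). The level of Tmem173 was 13.8, 13.5 and 12.5 CPM in control, 7.39, 6.95 and 7.31 CPM in HD-het and 18.3, 19.2 and 17.9 CPM in HD-homo libraries. The lines did not overlap, with HD-het lowest and HD-homo highest, and replicates of a line differed by less than 1.5 CPM. Against control cells the log2 fold change of Tmem173 was -0.88 in HD-het cells (95% interval -1.06 to -0.70) and 0.47 in HD-homo cells (0.31 to 0.64). Between the HD lines it was 1.35 (SE 0.0798, adjusted p = 5.3e-08, edgeR QL), a level 2.55-fold higher in HD-homo cells. The transcript shares no 50-base word with another gene and overlaps none.

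Tbk1, the kinase that STING recruits, on the minus strand of chromosome 10 (121546455 to 121586787), had 77.7, 78.9 and 74.1 CPM in control, 55.0, 58.1 and 56.4 CPM in HD-het and 67.2, 82.9 and 69.2 CPM in HD-homo libraries. HD-homo replicate 2 was above all control libraries and the other HD-homo replicates were below them. Tbk1 fell by 0.44 on the log2 scale in HD-het cells against control cells (adjusted p = 4.1e-04, edgeR QL), and was 0.37 higher in HD-homo cells than in the HD-het line (SE 0.0776, adjusted p = 0.0012, edgeR QL). For HD-homo against control cells the 95% interval of the log2 fold change ran from -0.24 to 0.10 (adjusted p = 0.441, edgeR QL), and without HD-homo replicate 2 the log2 fold change was -0.17 and passed (adjusted p = 0.0261).

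Ikbke encodes the kinase that is induced in immune cells, where TBK1 is made by most cells, and lies on the minus strand of chromosome 1 (131254343 to 131279606). The level of Ikbke was 1.68, 1.1 and 1.35 CPM in control, 3.58, 3.08 and 3.17 CPM in HD-het and 6.19, 6.51 and 4.89 CPM in HD-homo libraries. The 3 lines did not overlap. Against control cells Ikbke rose 2.38-fold in HD-het cells (log2 fold change 1.25, SE 0.185, adjusted p = 1.2e-04, edgeR QL) and 4.26-fold in HD-homo cells (log2 fold change 2.09, SE 0.179, adjusted p = 1.7e-06, edgeR QL). Between the HD lines it rose 1.79-fold (log2 fold change 0.84, SE 0.161, adjusted p = 6.3e-04, edgeR QL). Per transcript length, Ikbke made up 1.64% ± 0.346 (SD, n = 3) of the sum of Ikbke and Tbk1 in control, 5.12% ± 0.522 (SD, n = 3) in HD-het and 6.96% ± 0.871 (SD, n = 3) in HD-homo libraries, so that Tbk1 remained by far the more abundant kinase message.

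Irf3, the transcription factor that both kinases phosphorylate, lies on the plus strand of chromosome 7 (44997648 to 45002848). The level of Irf3 was 23.2, 19.6 and 22 CPM in control, 26.3, 25 and 24.5 CPM in HD-het and 16.0, 16.2 and 15.4 CPM in HD-homo libraries. The order of the lines was the opposite of that of Tmem173, with HD-het highest and HD-homo lowest, and the libraries did not overlap. Irf3 was 1.59-fold lower in the HD-homo line than in the HD-het line (log2 fold change -0.67, SE 0.0779, adjusted p = 1.3e-05, edgeR QL) and 1.36-fold lower than in control cells (log2 fold change -0.44, SE 0.0784, adjusted p = 5.4e-04, edgeR QL). The increase of 0.23 in HD-het cells (adjusted p = 0.0217, edgeR QL) did not pass without control replicate 2 (adjusted p = 0.109) or without HD-het replicate 1 (adjusted p = 0.0812). The gene overlaps Bcl2l12 on the opposite strand by 8 bases.

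**Figure D2:**
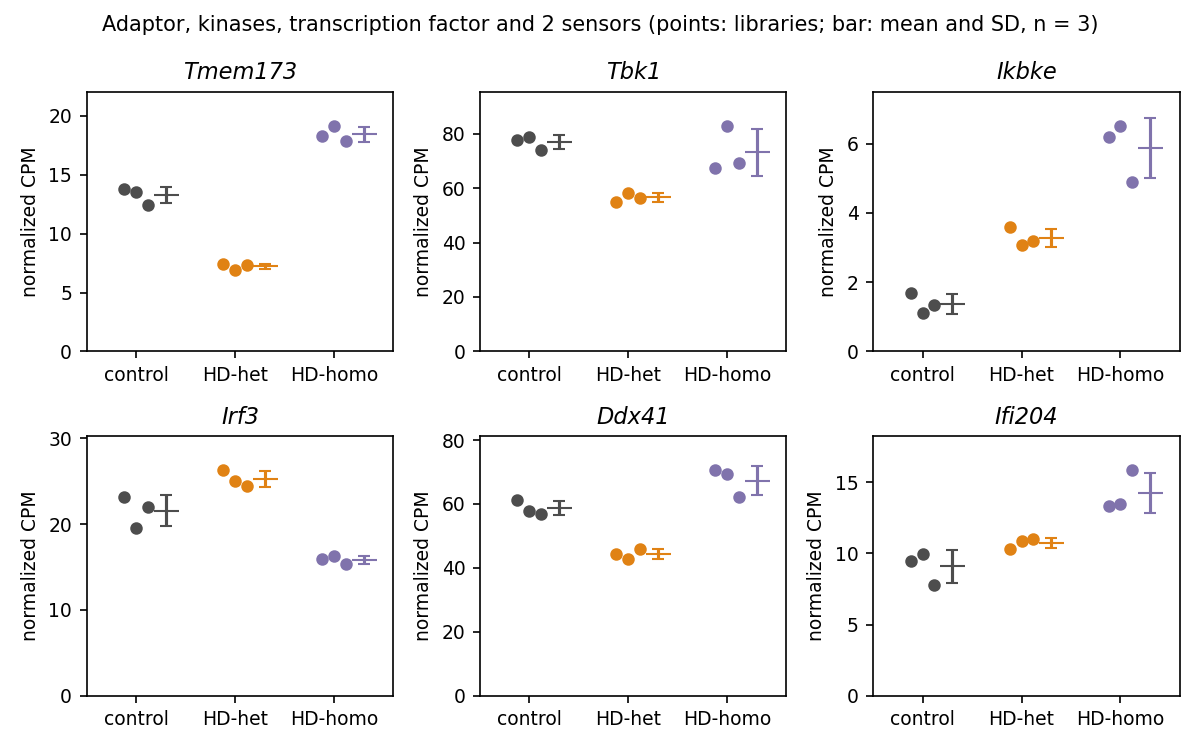
Normalized CPM on linear axes that start at 0, with a panel for each of 6 members, a point for each of the 3 libraries of a line, and a bar for the mean and SD. Tmem173 and Ddx41 are lowest in HD-het and highest in HD-homo cells, Irf3 is highest in HD-het and lowest in HD-homo cells, Ikbke rises from 1.38 to 3.28 and 5.87 CPM on average, and Tbk1 overlaps between control and HD-homo libraries.

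Counted over the rows, 9 of the 10 passed an adjusted p of 0.05 between HD-homo and control cells, with 8 higher and 1 lower in HD-homo cells. Among the 13508 tested genes 58.6% passed in this comparison, 29.6% higher and 28.9% lower. Between HD-het and control cells 8 of the 10 passed, with 5 higher and 3 lower, where 65.1% of all tested genes passed, 33.8% higher and 31.4% lower. Between the HD lines all 10 rows passed, with 9 higher and 1 lower in HD-homo cells, where 71.6% of all tested genes passed, 36.0% higher and 35.6% lower. Most genes of these lines differ, and a call by itself therefore says little about the members.

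The size and direction of the differences set the members apart from one another more than the calls did. The libraries did not overlap for 9 of the 10 rows between HD-homo and control cells (65.3% of all tested genes), for all 10 between HD-het and control cells (74.0%) and for all 10 between the HD lines (72.8%). The median log2 fold change of the 10 rows was 1.37, 0.70 and 0.80 in these comparisons, where that of all tested genes was 0.0077, 0.025 and 0.0017. All 10 rows passed the filter on low counts, but no control library of Cgas, Mb21d1 or Zbp1 reached its level. Cgas was thus tested only because of its level in the HD lines, and Mb21d1 and Zbp1 could be tested only with their HD-homo libraries. The counts and medians are therefore given only as a description. The first and second comparison share the control libraries. With both cGAS rows added, 8, 7 and 9 of the 9 genes passed. The median log2 fold change of the 9 genes was lower than that of the 10 rows. It was that of Ifi204 against control cells (0.64 in HD-homo, 0.24 in HD-het) and of Aim2 between the HD lines (0.76).

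**Figure D3:**
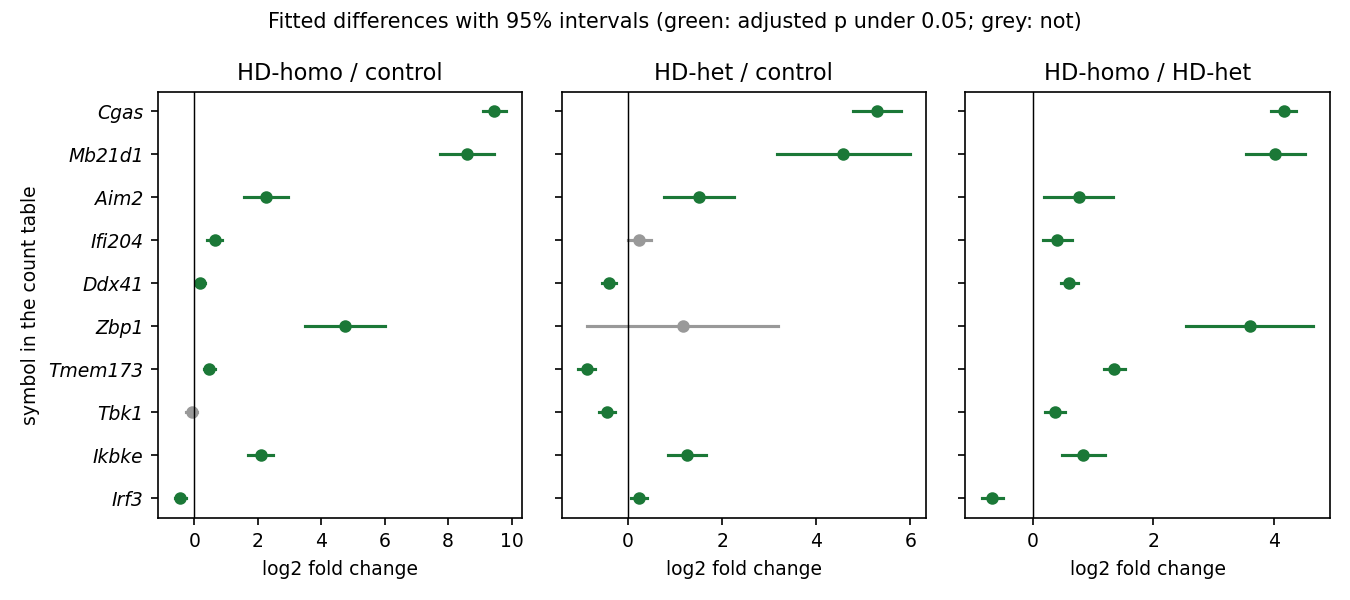
Fitted log2 fold changes of the 10 rows in the 3 comparisons, with 95% intervals; green marks an adjusted p under 0.05. The intervals of Zbp1 and Ifi204 in HD-het and of Tbk1 in HD-homo against control cells include 0, and the horizontal scales differ between the panels.

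Levels were compared between genes per kilobase of the longest protein-coding GENCODE transcript, with both cGAS rows added. In control cells the order was Ddx41 (26.6 CPM per kb), Tbk1 (25.4), Irf3 (10.6), Tmem173 (5.77), Ifi204 (3.96), Ikbke (0.424), Aim2 (0.0983), Zbp1 (0.0211) and cGAS (0.0183). Only Ddx41 and Tbk1, and Zbp1 and cGAS, overlapped with their neighbour in that order. In HD-het cells cGAS stood seventh with 0.728 CPM per kb, between Ikbke (1.01) and Aim2 (0.284), and no neighbours overlapped. In HD-homo cells cGAS was the third most abundant of the 9 with 12.9 CPM per kb, below Ddx41 (30.5) and Tbk1 (24.2) and above Tmem173 (8.02) and Irf3 (7.81), which overlapped each other.

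The balance of sensor to adaptor message was set beside these levels. The ratio of cGAS to Tmem173, both per kilobase and with both cGAS rows added, was 0.00128, 0.00375 and 0.00462 in the control libraries. It averaged 0.232 ± 0.00952 (SD, n = 3) over the HD-het and 1.62 ± 0.110 (SD, n = 3) over the HD-homo libraries. The lines did not overlap, and per kilobase each HD-homo library held more cGAS than Tmem173. A longer or shorter transcript in use than the one annotated would scale these levels alike only if every line used the same transcripts. Transcript use in each line was not tested.

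**Figure D4:**
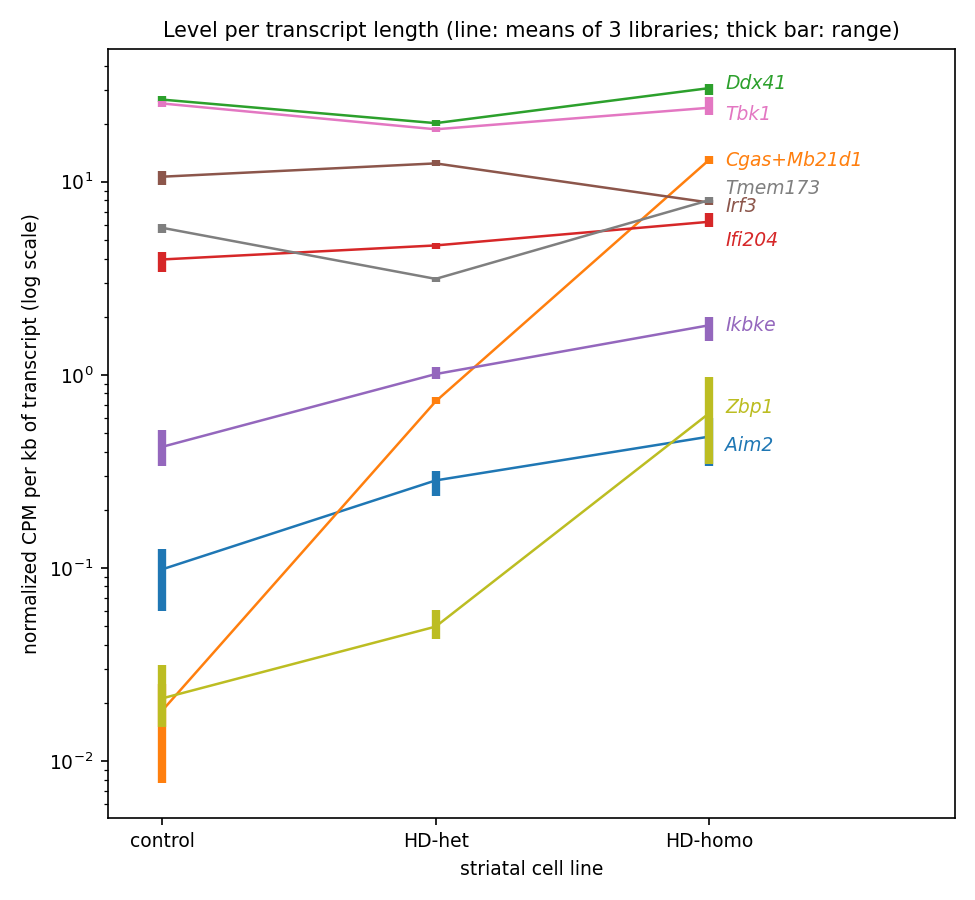
Mean normalized CPM per kilobase of transcript of the 9 genes in the 3 lines, on a log scale, with thick bars for the range of the 3 libraries. The line for cGAS, the sum of both rows, rises from the lowest level in control cells (0.0183) to the third highest in HD-homo cells (12.9), while the other lines stay nearer to level.

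Genes that act beside the members were described by lists drawn up for each step of the pathway. Among the other DNA-binding sensors, 5 of 16 tested genes were higher in HD-homo cells than in controls, 3 were lower and 8 did not pass, and in HD-het cells 3 were higher, 10 lower and 3 did not pass. The calls thus covered 8 and 13 of the 16 genes, where 58.6% and 65.1% of all tested genes were called in these comparisons. Rad50, a subunit of the MRE11 complex that detects broken DNA ends, was higher in both HD lines (53.2, 65.0 and 86.9 CPM going from control to HD-het to HD-homo cells). Zcchc3, a cofactor of cGAS, fell by 0.97 on the log2 scale in HD-homo cells and was 0.30 higher in HD-het cells (adjusted p = 1.2e-06 and 0.0051, edgeR QL). The helicase gene Dhx9 was lower in both HD lines. The median log2 fold change of this list was -0.0055 in HD-homo and -0.22 in HD-het cells.

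Among 8 tested PYHIN relatives of Aim2 and Ifi204, 4 were higher than in control cells in the HD-homo line and 2 in the HD-het line, and none was lower in either (the lowest adjusted p of a fitted decrease, that of Ifi208 in HD-homo cells, was 0.0864, edgeR QL). Over all tested genes 29.6% were called higher and 28.9% lower in the HD-homo comparison, and 33.8% higher and 31.4% lower in the HD-het comparison. Calls thus fell on 4 and 2 of the 8, below the 58.6% and 65.1% called among all tested genes. Ifi203 was at 1.24 ± 0.267 CPM in control, 0.809 ± 0.0976 CPM in HD-het and 5.85 ± 1.92 CPM in HD-homo cells (SD, n = 3), and its rise in HD-homo cells passed the test (log2 fold change 2.22, SE 0.248, adjusted p = 1.6e-05, edgeR QL). Ifi202b, a member without the pyrin domain, was higher in both HD lines (log2 fold changes 0.77 in HD-homo and 0.61 in HD-het cells). These genes resemble one another closely, so that reads may be divided between them, and Ifi213 and Ifi214 had no reads.

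A further list held genes that remove DNA or cGAMP and a carrier of cGAMP. Of 9 tested, 6 were higher and 2 lower in HD-homo cells than in controls, and 2 were higher and 5 lower in HD-het cells, so that 8 and 7 were called against a background of 58.6% and 65.1%. Enpp1, the ectoenzyme that hydrolyses cGAMP outside the cell, was at 25.2 ± 1.63 CPM in control, 12.4 ± 1.49 CPM in HD-het and 157 ± 20.2 CPM in HD-homo cells (SD, n = 3). Against control cells its log2 fold change was 2.64 in the HD-homo line and -1.02 in the HD-het line (adjusted p = 4.1e-09 and 1.2e-05, edgeR QL). Slc19a1, which is on the list as a carrier that brings cGAMP into cells and is not a brake, was lower in both HD lines (115, 47.6 and 85.3 CPM going from control to HD-het to HD-homo cells). The lysosomal nuclease gene Dnase2a was higher in both (6.78, 12.7 and 11.2 CPM), whereas of the RNase H2 subunits Rnaseh2b was higher and Rnaseh2c lower in both HD lines.

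Among 20 genes for the trafficking, modification and turnover of STING, 8 were higher and 4 lower in HD-homo cells, and 11 were higher and 1 lower in HD-het cells. These are 12 of 20 in each comparison, beside 58.6% and 65.1% of all tested genes. Rhbdf2, which encodes iRhom2, a protein that helps STING leave the endoplasmic reticulum and protects it from degradation, was at 0.242, 5.58 and 14.8 CPM going from control to HD-het to HD-homo cells, a ratio of summed reads of 23.2 (exact 95% interval 15.3 to 36.9) in HD-het and 62.2 (41.3 to 98.5) in HD-homo cells. Trim56, a ubiquitin ligase of STING, was highest in HD-het cells (7.69, 28.2 and 17.6 CPM). Usp18, an interferon-inducible protease, had 0 to 4 reads in control libraries and 13.4 ± 9.42 CPM in HD-homo cells (SD, n = 3), a ratio of 245 (105 to 756). No control library of Rhbdf2 or Usp18, and no HD-het library of Usp18, reached the level of the filter on low counts. Rhbdf2 was thus tested only because of its level in the HD lines and Usp18 only because of its HD-homo level, and the counts of this list are a description only. Nlrx1, whose product holds STING back from TBK1, had log2 fold changes of -1.12 in HD-homo and 1.29 in HD-het cells (adjusted p = 0.0036 and 3.3e-04, edgeR QL). Surf4, a cargo receptor, and Stim1, a calcium sensor that retains STING, were higher in both HD lines by less than 0.5 on the log2 scale.

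Of the 10 adaptors and regulators of TBK1 and IKK-epsilon, 2 were higher and 4 lower in HD-homo cells, and 3 were higher and 4 lower in HD-het cells, which makes 6 and 7 of 10 against the same 58.6% and 65.1%. Optn, the autophagy receptor optineurin, was higher in both HD lines (14.0, 33.2 and 35.4 CPM going from control to HD-het to HD-homo cells). Tank, the scaffold after which TBK1 is named, was at 27.4, 31.2 and 70.5 CPM, and the HD-homo increase of 1.36 on the log2 scale passed the test (adjusted p = 3.4e-07, edgeR QL), whereas that of 0.19 in HD-het cells did not (adjusted p = 0.111, edgeR QL). Dtx4, a ubiquitin ligase that directs TBK1 to degradation, fell from 31.4 CPM to 21.1 and 8.96 CPM. Ddx3x and Traf3 were lower in both HD lines by less than 0.5 on the log2 scale.

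Among the partners of AIM2 and ZBP1, the inflammasome adaptor Pycard, its protease Casp1 and the cytokine gene Il1b had at most 4, 14 and 2 reads in any library, and Casp1 was counted in HD-het libraries alone (0.298 CPM). Gsdmd and Il18, named here after their values were seen, were counted in every library. Gsdmd, which encodes the pore-forming gasdermin D, was at 5.98, 6.03 and 8.07 CPM going from control to HD-het to HD-homo cells and passed the test in the HD-homo line (log2 fold change 0.43, adjusted p = 0.0048, edgeR QL). Il18, a cytokine gene, was at 1.21, 2.13 and 1.69 CPM and passed in the HD-het line (log2 fold change 0.81, adjusted p = 0.0205, edgeR QL). Ripk3, the kinase that ZBP1 engages, was at 0.165, 1.02 and 54.0 CPM going from control to HD-het to HD-homo cells, with a ratio of summed reads of 324 (exact 95% interval 199 to 567) in HD-homo against control cells. No control library of Ripk3 reached the level of the filter on low counts, so that this gene was tested only because of its level in the HD lines. Mlkl, the effector that RIPK3 phosphorylates, was at 0.597, 9.92 and 42.5 CPM, with ratios of 16.5 (12.7 to 22) in HD-het and 70.9 (54.6 to 93.8) in HD-homo cells. Casp8, which restrains necroptosis, was 0.18 lower on the log2 scale in HD-homo cells (adjusted p = 0.0337, edgeR QL). Of the 8 tested genes of this list, 4 were higher and 1 lower in HD-homo cells, and 4 were higher and 2 lower in HD-het cells. Calls thus fell on 5 and 6 of the 8, with 58.6% and 65.1% called among all tested genes.

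At the end of the pathway, 9 of 10 tested IRF3 target genes were higher in HD-homo cells than in controls and 1 was lower, whereas the HD-het line had 4 higher, 1 lower and 5 that did not pass (58.6% and 65.1% of all tested genes were called). In 5 of the 10 genes no control library reached the level of the filter on low counts, and Ccl5, Ifit1, Oasl1 and Rsad2 could be tested only with their HD-homo libraries, so that these counts and the median of the list are a description only. Ifit1 had 0 to 4 reads in control and 7 to 13 in HD-het libraries and was at 20.4 ± 4.01 CPM in HD-homo cells (SD, n = 3), a ratio of 280 (exact 95% interval 136 to 698) to control cells. Irf7, the interferon-inducible relative of Irf3, was at 0.106, 0.995 and 13.2 CPM going from control to HD-het to HD-homo cells, Isg15 at 0.430, 0.978 and 10.8 CPM and Ifit3 at 0.294, 0.796 and 5.08 CPM, and each passed the test in both HD lines. Oasl1 had no reads in any control or HD-het library and 7.79 ± 1.14 CPM in HD-homo cells (SD, n = 3), which is at least 82.3-fold above a floor of 3 reads per control library. Ifit2 was the exception, with 28.4 CPM in controls, 29.3 CPM in the HD-het line and a decrease of 0.47 on the log2 scale to 20.5 ± 7.21 CPM in HD-homo cells (adjusted p = 0.0475, edgeR QL). The interferon gene Ifnb1 itself had no read in any library. The median log2 fold change of the list was 6.42 in HD-homo cells, or 6.14 with Oasl1 at its lower bound, and 0.92 in HD-het cells.

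**Figure D5:**
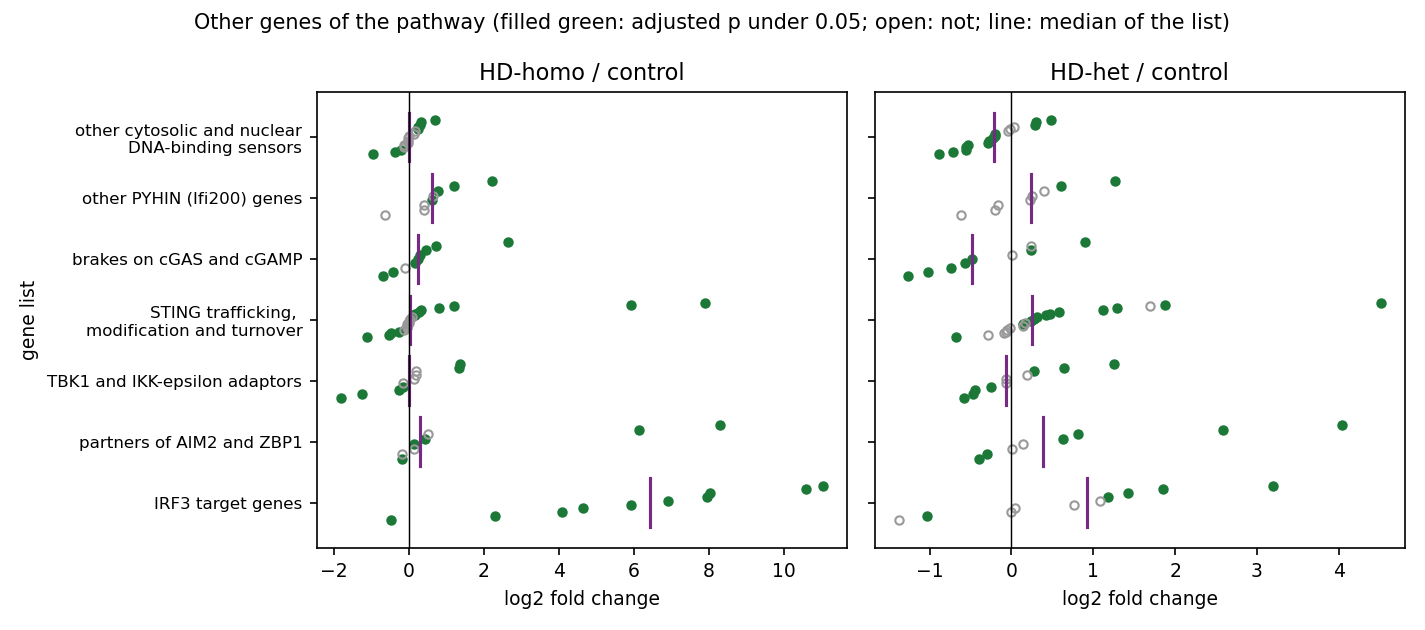
Fitted log2 fold changes against control cells for the tested genes of 7 lists, with filled green points for an adjusted p under 0.05, open points for the rest and a vertical line at the median of each list. The IRF3 targets have a median of 6.42 in HD-homo and 0.92 in HD-het cells, the medians of the other lists lie below 1 in both, and the point of Oasl1 in HD-homo cells depends on the prior count, since its control libraries had no reads.

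Some genes of other marker lists also differed in the HD-homo line. The progenitor genes Nes, Sox2 and Pax6 were at 526, 128 and 32.1 CPM in control cells. In HD-homo cells they were at 28.4, 5.48 and 0.132 CPM, and in HD-het cells at 840, 82.9 and 48.2 CPM. The sum of 5 progenitor markers was 4157 to 4574 CPM in HD-homo libraries against 5894 to 6356 CPM in control libraries. Most of this sum came from Vim, which averaged 4264 CPM in HD-homo and 5383 CPM in control cells. The sum of 5 astrocyte markers was 12.5 to 17.8 CPM in HD-homo libraries and 2.52 to 2.67 CPM in control libraries, most of it from Slc1a3. Gfap and Aldh1l1 were lower in HD-homo than control cells (0.0380 against 0.169 CPM and 0.0278 against 0.160 CPM), with at most 6 and 7 reads in any library. Aqp4 and S100b had at most 3 reads in every library. The part of such differences in the levels of the pathway genes was not tested. The microglia and macrophage sum, most of it from Tmem119, was highest in HD-het cells. Among the members, Tmem173, Tbk1 and Ddx41 were lowest in that line and Irf3 was highest. The mean levels of the others lay between those of control and HD-homo cells. A link between the markers and the members was not tested.

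For each member the tested genes with the most similar profile were listed by the Euclidean distance between log2(CPM + 0.5) values over the 9 libraries, each gene centred on its own mean, among 12008 genes that averaged at least 1 CPM. For Cgas the nearest were Wnt10b at a distance of 1.02, Fbn2 at 1.11 and Unc5c at 1.23, while the row Mb21d1, whose low values the constant compresses, had Neurl1a (0.424), Slc35d2 (0.453) and Gfpt2 (0.526). For Aim2 the nearest were Sqor (0.399), Uba7 (0.410) and Sqrdl (0.447), of which Sqor and Sqrdl are names of the same gene. Zbp1 was nearest to Parp10 (0.391), Ank1 (0.431) and Nrg1 (0.483), and Ikbke to Smarca2 (0.419), Tdrkh (0.452) and C1qtnf6 (0.456). Members that varied less between the lines had closer neighbours. These were Ccnb1 (0.0928), Rbm28 (0.131) and Pspc1 (0.137) for Ddx41 and Mcoln1 (0.115), Cyth2 (0.175) and Tmem9 (0.177) for Irf3. For Tbk1 they were Xpo1 (0.153), Chuk (0.154) and Tbc1d23 (0.156), for Ifi204 Ppfibp1 (0.208), Colgalt1 (0.214) and Morc3 (0.223), and for Tmem173 Nol12 (0.272), Pdp2 (0.285) and Rnf19b (0.288). A distance grows with the range of the profile, so that distances do not rank the members.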

How the data were processed

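RNA of 9 libraries, 3 from each of 3 striatal cell lines, was measured by poly(A) RNA-seq. The authors deposited raw counts per gene symbol, 1 column per library and not normalized. The submitters' processing notes name cutadapt, Bowtie 1.1.2, RSEM 1.3.0 and DESeq2 with the builds GRCm38.p5 and mm10, without role or order, so the counts may be rounded estimates. The strand setting of the counting is not given in the sources used here. Of the 36410 symbols, 26 are dates and 834 genes appear under both a symbol and a synonym. No column was left unused.

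The analysis used edgeR 4.0.16 under R 4.3.3. The filter filterByExpr (minimum count 10) left 13508 genes, which were normalized by TMM, and fitted with 1 mean per line over all 9 libraries. The lines were compared in pairs by the two-sided quasi-likelihood test with Benjamini-Hochberg adjustment within each comparison at 0.05. Normalized CPM are counts per megaread of the TMM-scaled library. The paper's text names no test for these counts. Ratios of summed reads have exact 95% intervals, and 3 counts per library served as the floor. Both cover counting error alone. The scripts were tested on simulated data.

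The members and lists were chosen with earlier results of these data known. From each list the text names up to 4 genes that passed in both HD lines in the same direction and the highest and lowest in HD-homo cells. The 3 nearest genes of each member by distance over the 9 libraries are also named. Alternatives were DESeq2's size factors, library totals, DESeq2 1.42.0 (Wald test), no filter or at least 10 counts in every library, summed cGAS rows, a prior count of 2, only the 2 lines compared, the replicate number as a block, each library left out, an adjusted p under 0.01 and a log2 fold change of at least 1. Positions and transcripts come from GENCODE M21 (GRCm38), promoter sequences from RefSeq (GRCm38.p6), with a window for 6 of the 9 genes.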

Additional observations from a re-analysis of the deposited data

Results flagged for a closer look

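The HD lines lay on opposite sides of control cells for 3 members, and the difference between the lines passed edgeR's quasi-likelihood test for each. Tmem173 was 1.35 higher on the log2 scale in HD-homo than HD-het cells (adjusted p = 5.3e-08), with -0.88 in HD-het and 0.47 in HD-homo against control cells. Ddx41 was 0.60 higher (adjusted p = 7.2e-06), with -0.40 and 0.20 against control cells. Irf3 went the other way, with -0.67 between the HD lines (adjusted p = 1.3e-05), 0.23 in HD-het and -0.44 in HD-homo cells. Against control cells the HD-homo increase of Ddx41 did not pass without control replicate 2 or 3 (adjusted p = 0.0705 and 0.0730, edgeR QL) or without HD-homo replicate 1 or 2 (adjusted p = 0.0739 and 0.0523, edgeR QL). Likewise the HD-het increase of Irf3 did not pass without control replicate 2 or HD-het replicate 1 (adjusted p = 0.109 and 0.0812, edgeR QL). Every HD-het library was below every control library for Tmem173 and Ddx41 and above for Irf3, and the reverse held in the HD-homo libraries. Of all tested genes 74.0% did not overlap between HD-het and control and 65.3% between HD-homo and control libraries. Both contrasts share the control libraries, and each line is a single line of its genotype.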

How the results depend on the processing

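No fold change of a member changed sign among the differences that passed, under any alternative that was run. Requiring at least 10 counts in every library left Ifi204, Ddx41, Tmem173, Tbk1, Ikbke and Irf3 to be tested, of which 5 passed in HD-homo and 5 in HD-het against control cells and 6 between the HD lines. Requiring a log2 fold change of 1 or more as well left 5, 4 and 4 members and 2574, 2490 and 3285 of all genes in the same order. Without each library in turn 8 to 9, 7 to 8 and 9 to 10 members passed. With only the 2 lines compared, 7 passed in HD-het cells, where Mb21d1 and Zbp1 failed the filter. Cgas in HD-homo against control cells ranged from 8.59 to 9.90 on the log2 scale, Mb21d1 from 6.32 to 10.54 and Zbp1 from 3.68 to 5.13.

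Libraries of different lines share replicate numbers in the labels, but the deviations of same-numbered libraries from their line mean correlated at -0.0053 to 0.145, with 1 or more pairs under 0.1 in every comparison, so the numbers were not taken to pair them. Every library correlated best with its own number in both comparisons with control cells, and 4 of 6 did between the HD lines. A replicate block gave 9, 8 and 10 members and 8372, 9160 and 9938 genes, and changed no member's call.

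Depth limits cGAS, Zbp1 and Aim2 in control cells, where they had at most 12 reads per library.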

Other observations

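Some genes of the pathway lists had patterns that were not described above, and those named here were chosen after their values were seen. The 4 listed subunits of RNA polymerase III, an enzyme that can turn cytosolic DNA into an RNA ligand of RIG-I, were all lower in HD-het than control cells, with log2 fold changes of -0.53 for Polr3a, -0.88 for Polr3b, -0.55 for Polr3c and -0.21 for Polr3f (adjusted p = 1.3e-05, 4.0e-07, 3.3e-05 and 0.0296 from edgeR). In that comparison 10 of the 16 tested genes of their list and 31.4% of all tested genes were called lower. In HD-homo cells Polr3f alone of the 4 passed against control cells, with 0.25 (adjusted p = 0.0136 from edgeR). Xrcc6, which encodes the Ku70 subunit of the end-joining complex, was at 76.7 CPM in control, 46.8 CPM in HD-het and 96.3 CPM in HD-homo cells. Npc1, a lysosomal cholesterol transporter linked to STING turnover, was at 28.9, 62.5 and 27.8 CPM in the same order. Among the IRF3 targets the chemokine genes Ccl5 and Cxcl10 had at most 2 and 10 reads in any control library and averaged 54.1 and 68.2 CPM in HD-homo cells.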
